A study of Mus musculus with 24 samples.

Results

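The genes of the small leucine-rich proteoglycan family were followed in constructs collected from mice 2 weeks after implantation. The 10 members were taken by symbol from the count table, which holds 51138 genes: Fmod, Dcn, Bgn, Lum, Ogn, Omd, Prelp, Kera, Aspn and Podn. All 10 had enough reads to be kept. The family was chosen by the measured CPM of Fmod, which was much lower in mice given diphtheria toxin in these same libraries. The difference between toxin-treated and other mice is therefore given below as a description, with no test, as is Fmod between the 2 toxin-treated groups, and the tests are kept for the other steps of the design.

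Small leucine-rich proteoglycans are secreted proteins of the extracellular matrix, built on a curved core of leucine-rich repeats. Most of them bind fibrillar collagens and are known to set the spacing and thickness of fibrils, and several also hold growth factors of the TGF-beta family. Decorin and biglycan carry chondroitin or dermatan sulfate chains, while fibromodulin, lumican, keratocan and osteomodulin are keratan sulfate proteoglycans. In bone and its surrounding connective tissue they are made by fibroblasts, tendon cells and cells of the osteoblast lineage.

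The study asked how priming of mesenchymal stromal cells (MSC) changed ectopic bone formation, and whether regulatory T cells (Treg) of the host mattered. All hosts were Foxp3-DTR/eGFP mice of both sexes, 8 to 9 weeks old, which express the diphtheria toxin receptor under Foxp3. Each mouse carried 2 constructs of 1 kind under the skin of the back, and MSC came from bone marrow of wild-type C57BL/6J mice by the study's methods, while its design overview also names Foxp3-eGFP donors. There were 6 groups of 4 mice, labelled as biological replicates. BCP was the biphasic calcium phosphate scaffold alone, and BCP+MSC the scaffold with MSC. In BCP+MSC+RvE1 the MSC had been primed with 10 nM Resolvin E1, a pro-resolving lipid mediator. In BCP+MSC+Treg, sorted Treg were added to the MSC on the scaffold, and the construct was implanted after coculture. These Treg came from spleens of Foxp3-DTR/eGFP mice and had been activated with antibodies beforehand. In (dep)BCP+MSC, and likewise in (dep)BCP+MSC+RvE1inj, the hosts received diphtheria toxin at 50 ug/kg by intraperitoneal injection after implantation, and the last group also received 1 uM RvE1 in 50 uL, injected locally each day. All toxin-treated mice carried BCP+MSC constructs, and no toxin-free mice were described within that experiment, so toxin and experiment cannot be told apart. The 4 groups without toxin are BCP, BCP+MSC, BCP+MSC+RvE1 and BCP+MSC+Treg.

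Total counts ran from 8482701 to 144417743 per library, a 17.0-fold range, and values are given as CPM, counts relative to the size of each library after TMM scaling. Foxp3 itself, the gene that drives the toxin receptor, overlapped between toxin-treated and BCP+MSC constructs. Its mean was 0.933 CPM ± 0.240 (SD, n = 4) in BCP+MSC, 0.985 CPM ± 0.542 in (dep)BCP+MSC and 0.705 CPM ± 0.315 in (dep)BCP+MSC+RvE1inj, so these groups are named by their treatment. The study itself reported fewer Treg after toxin by flow cytometry of lymph nodes and spleen, which are other tissues than the constructs. Xist, an RNA of female cells, was above 10 CPM in 3 of 4 BCP+MSC animals, 1 each of BCP and BCP+MSC+Treg, 2 of (dep)BCP+MSC and 0 of the remaining groups. Shallow libraries, fibroblast markers, skeletal muscle markers and skin markers also differed between animals, and their values stand beside the results they touch.

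Most members lie in clusters. Fmod (ENSMUSG00000041559.7) spans chr1:134037254-134048277 on the plus strand of GRCm38, 116 kb from Prelp, at chr1:133910304-133921414 on the minus strand. On chromosome 10, Dcn (97479609-97518143), Lum (97565128-97572703) and Kera (97606879-97613692) follow each other, with gaps of 47.0 and 34.2 kb. On chromosome 13, Aspn (49544443-49567565), Omd (49582766-49592609) and Ogn (49608071-49624500) follow each other, with gaps of 15.2 and 15.5 kb. Podn lies alone at chr4:108014791-108096445, and Bgn at chrX:73483602-73495933. Reads were counted on exons without regard to strand. Among the members, only Prelp shares exon bases with another gene, 350 bases or 9.68% of its exonic length with Gm15851 on the opposite strand, so its count is less certain than the others.

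The stretches upstream of 4 members are shown, because the levels below set Fmod, Ogn and Aspn apart from Prelp, the genomic neighbour of Fmod. They are the 250 bases before the start in RefSeq, build GRCm38.p6, written 5′ to 3′ on the strand of the gene, with motif matches in capitals.
Fmod, upstream of the start, chr1:134037004-134037253, plus strand: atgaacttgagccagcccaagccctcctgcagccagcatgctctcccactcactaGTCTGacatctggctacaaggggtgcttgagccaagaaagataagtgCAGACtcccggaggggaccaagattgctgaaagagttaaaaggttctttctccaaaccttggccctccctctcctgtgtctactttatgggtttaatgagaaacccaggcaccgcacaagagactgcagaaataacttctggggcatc
Prelp, upstream of the start, chr1:133921402-133921651, minus strand: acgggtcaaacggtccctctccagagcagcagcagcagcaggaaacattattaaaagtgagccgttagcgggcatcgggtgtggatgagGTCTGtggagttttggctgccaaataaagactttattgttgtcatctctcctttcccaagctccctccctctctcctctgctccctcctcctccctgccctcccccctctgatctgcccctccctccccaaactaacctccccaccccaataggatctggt
Ogn, upstream of the start, chr13:49607765-49608014, plus strand: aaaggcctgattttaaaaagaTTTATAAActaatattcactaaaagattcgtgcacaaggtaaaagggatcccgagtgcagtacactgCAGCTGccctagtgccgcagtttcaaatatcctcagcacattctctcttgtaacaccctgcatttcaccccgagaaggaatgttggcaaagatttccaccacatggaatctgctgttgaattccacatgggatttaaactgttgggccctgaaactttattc
Aspn, upstream of the start, chr13:49544193-49544442, plus strand: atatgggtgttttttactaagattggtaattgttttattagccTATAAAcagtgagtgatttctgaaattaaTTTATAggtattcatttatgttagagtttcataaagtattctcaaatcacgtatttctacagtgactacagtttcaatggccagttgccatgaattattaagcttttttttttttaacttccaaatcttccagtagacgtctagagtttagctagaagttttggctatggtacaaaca
Motifs searched on both strands were the TATA box TATAAA, the AP-1 site TGACTCA, the E-box CAGCTG and the SMAD box CAGAC. The SMAD box letters occurred 2 times before Fmod and 1 time before Prelp, and are found in 42.2% of all 32851 windows of this length. The TATA box letters occurred 2 times before Aspn and 2 times before Ogn, where both matches share 4 bases, against 12.4% of all windows with a match. The E-box letters were found before Ogn, as in 13% of all windows, and the AP-1 letters, held by 4.46% of all windows, were in none of the 4. Windows were at hand for 8 of the 10 members. No motif was held by Fmod, Ogn and Aspn together, and a match of letters is no evidence of binding.

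Per length of exon, Bgn and Dcn were the leading members. The median level over all 24 animals was 246 CPM per kb for Bgn, 159 for Dcn and 87.3 for Lum. Aspn, Prelp and Ogn followed at 26.1, 23.9 and 20.1 CPM per kb, Podn at 10.8 and Fmod at 6.33. Omd, at 1.01 CPM per kb, and Kera, at 0.0722, were the lowest. Fmod was thus a minor member by RNA, and the family total was set by Bgn, Dcn and Lum.

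**Figure D1:**
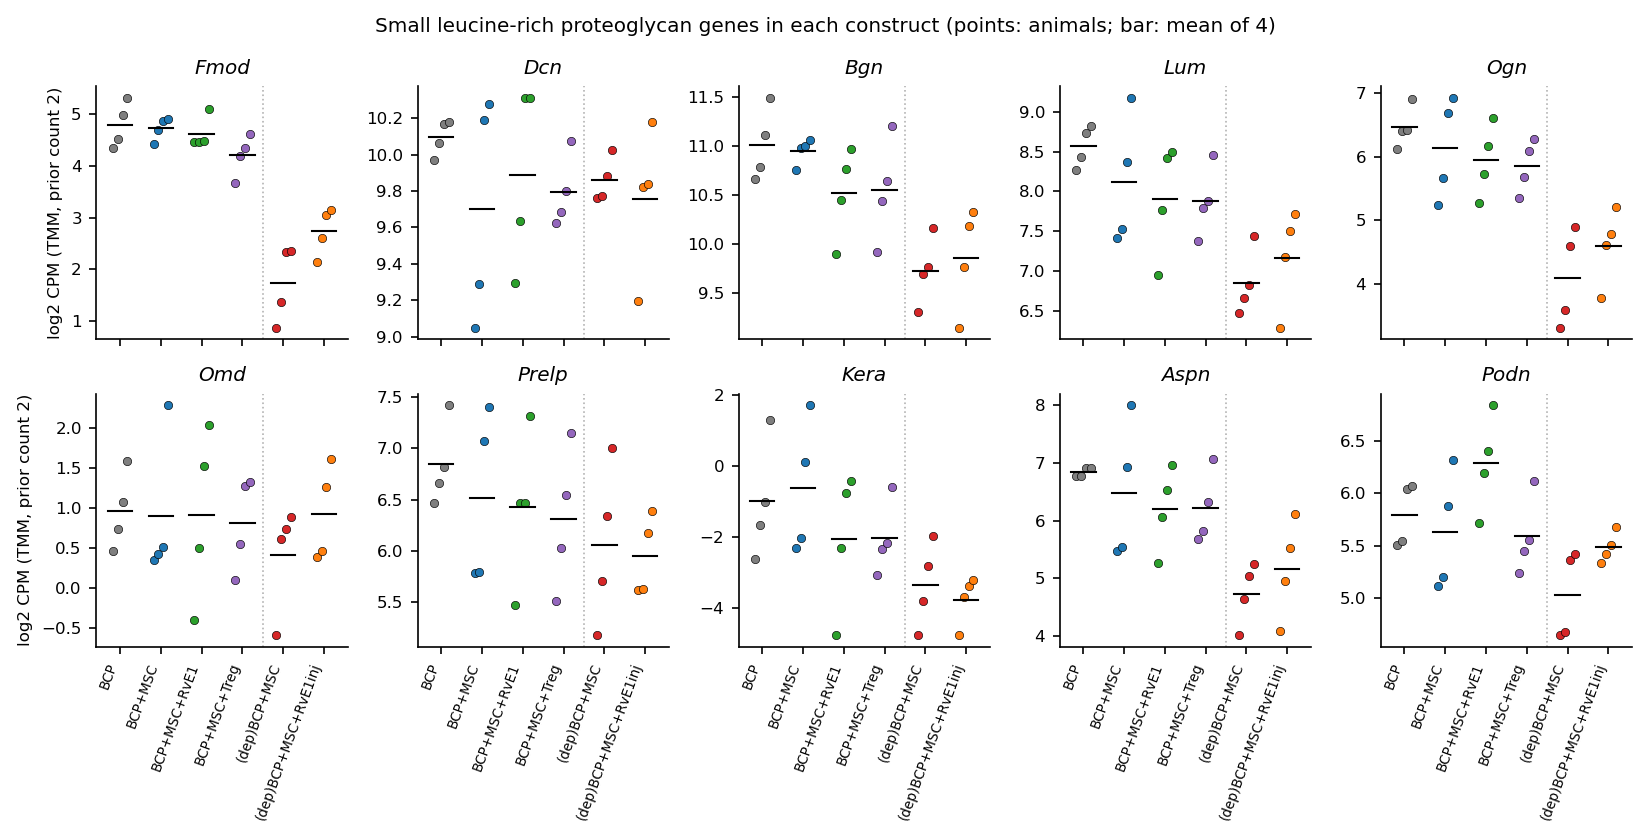
Log2 CPM of each of the 10 members (y axes, a separate scale per gene) in the 6 groups (x axes). Points are the 4 animals of a group, ordered by value, bars are means, and the dotted line separates the 2 toxin-treated groups. Fmod and Ogn lie lower in all 8 toxin-treated animals than in any of the other 16, whereas the Dcn values overlap.

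Fmod encodes fibromodulin, a collagen-binding member that is abundant in tendon and cartilage. Values are given in the order of replicates 1 to 4, and for (dep)BCP+MSC in the order of replicates 1 and 2 and columns 4 and 5 of the table, which carry no matching replicate number. In BCP its level was 23.0, 20.4, 40.1 and 31.8 CPM in the 4 animals, and in BCP+MSC 29.2, 30.2, 26.0 and 21.4 CPM. BCP+MSC+RvE1 had 22.3, 22.2, 34.2 and 22.1 CPM, and BCP+MSC+Treg 12.8, 24.4, 18.3 and 20.4 CPM. These 4 groups overlapped one another. In (dep)BCP+MSC the values were 1.79, 2.55, 5.08 and 5.02 CPM, and in (dep)BCP+MSC+RvE1inj 8.29, 8.86, 4.40 and 6.10 CPM. All 8 toxin-treated animals were below all 16 others, whose lowest value was 12.8 CPM, and the medians were 5.05 against 22.7 CPM. Ordered by mean, the groups ran from BCP (28.8 CPM ± 8.95) over BCP+MSC (26.7 ± 3.95), BCP+MSC+RvE1 (25.2 ± 5.99) and BCP+MSC+Treg (19.0 ± 4.85) to (dep)BCP+MSC+RvE1inj (6.91 ± 2.05) and (dep)BCP+MSC (3.61 ± 1.69). Between neighbours in that order, only BCP+MSC+Treg and (dep)BCP+MSC+RvE1inj did not overlap.

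Against BCP+MSC, Fmod was 7.25-fold lower in (dep)BCP+MSC, a log2 fold change of -2.86 (SE 0.32), and 3.83-fold lower in (dep)BCP+MSC+RvE1inj (-1.94, SE 0.31). With the 2 (dep)BCP+MSC animals with Xist above 10 CPM left out, a choice made after seeing the data, the first estimate was -2.38. Both comparisons share the BCP+MSC animals with each other and with the tests without toxin below, BCP+MSC against BCP included. The Fmod values of these animals were part of the choice of the family. The p-values of Fmod in those tests are therefore not independent of that choice. Ranked from the lowest log2 fold change among 30564 genes, Fmod stood at 1032 in the first and 1721 in the second, within the lowest 3.38% and 5.63%. In bulk samples, fewer cells of a type and less RNA per cell cannot be told apart.

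Ogn, which encodes mimecan (osteoglycin), and Aspn, which encodes asporin, a member that binds TGF-beta and collagen, came next. Ogn was at 37.8, 103, 50.7 and 122 CPM in BCP+MSC, at 9.87, 11.9, 29.8 and 24.1 CPM in (dep)BCP+MSC and at 27.4, 36.9, 13.7 and 24.4 CPM in (dep)BCP+MSC+RvE1inj. As for Fmod, all 8 toxin-treated animals were below the lowest of the 16 others, 37.8 CPM, but the highest of them, 36.9 CPM, lay just under it. The log2 fold change of Ogn against BCP+MSC was -2.04 (SE 0.40) in (dep)BCP+MSC and -1.61 (SE 0.40) in (dep)BCP+MSC+RvE1inj. Aspn was at 46.4, 255, 44.2 and 122 CPM in BCP+MSC, at 24.8, 16.1, 32.9 and 37.9 CPM in (dep)BCP+MSC and at 46.0, 69.0, 17.0 and 30.9 CPM in (dep)BCP+MSC+RvE1inj. The range of Aspn in (dep)BCP+MSC+RvE1inj overlapped that of BCP+MSC, and its log2 fold changes were -2.07 (SE 0.52) and -1.52 (SE 0.51). BCP+MSC replicate 2 held the highest Aspn of all animals.

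Bgn and Lum were lower by smaller steps. Bgn, which encodes biglycan, a matrix protein that in soluble form is known to engage Toll-like receptors, had 2046, 2130, 2023 and 1727 CPM in BCP+MSC. It had 630, 827, 1141 and 865 CPM in (dep)BCP+MSC and 1284, 1158, 564 and 866 CPM in (dep)BCP+MSC+RvE1inj. Neither toxin-treated group overlapped BCP+MSC, with log2 fold changes of -1.19 (SE 0.30) and -1.03 (SE 0.30), although BCP+MSC+RvE1 and BCP+MSC+Treg each reached down to 951 and 963 CPM without toxin. Lum, which encodes lumican, a regulator of fibril diameter, ran from 171 to 581 CPM in BCP+MSC, from 88.4 to 173 CPM in (dep)BCP+MSC and from 77.8 to 210 CPM in (dep)BCP+MSC+RvE1inj. Its ranges overlapped, and its log2 fold changes were -1.41 (SE 0.38) and -1.05 (SE 0.38).

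Dcn, which encodes decorin, the best known collagen-binding member, had overlapping levels with and without toxin. It had 530, 1241, 625 and 1170 CPM in BCP+MSC, 874, 867, 943 and 1044 CPM in (dep)BCP+MSC and 907, 1158, 586 and 914 CPM in (dep)BCP+MSC+RvE1inj. The BCP+MSC animals spread widely and enclosed every value of (dep)BCP+MSC. Its log2 fold changes were 0.06 (SE 0.27, 95% interval -0.47 to 0.60) and 0.00 (SE 0.27, interval -0.53 to 0.53). Differences inside these intervals cannot be seen with 4 animals a group.

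The remaining members had smaller estimates below 0. Prelp, which encodes a protein that anchors basement membranes to collagen, ran from 55.0 to 170 CPM in BCP+MSC and from 36.1 to 129 CPM in (dep)BCP+MSC, with a log2 fold change of -0.48 (SE 0.44). Podn, which encodes podocan, a member known from vessel walls and kidney, ran from 34.7 to 79.8 CPM in BCP+MSC and from 25.0 to 42.8 CPM in (dep)BCP+MSC, with -0.64 (SE 0.27). Omd, which encodes osteomodulin, a mineral-binding protein of bone, ran from 1.24 to 4.86 and from 0.626 to 1.81 CPM, with -0.66 (SE 0.53). In (dep)BCP+MSC+RvE1inj against BCP+MSC, the log2 fold change was -0.71 (SE 0.44) for Prelp, -0.22 (SE 0.27) for Podn and -0.13 (SE 0.53) for Omd. All 3 overlapped BCP+MSC in both toxin-treated groups.

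Kera, which encodes keratocan, a proteoglycan of the cornea, was barely detected. It had 38, 212, 10 and 14 reads in BCP+MSC, 0, 9, 3 and 5 reads in (dep)BCP+MSC and 6, 3, 0 and 1 reads in (dep)BCP+MSC+RvE1inj. Its log2 fold changes, -3.53 (SE 1.10) and -4.51 (SE 1.19), were the lowest of the family, but they rest on these few reads, and were -2.19 and -3.15 without BCP+MSC replicate 2. In the library of the smallest effective size, 3 reads correspond to 0.299 CPM, above every Kera value of the toxin-treated animals.

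Without toxin, the same members lay in these ranges. Dcn had 1095 CPM ± 73.6 in BCP. With RvE1-primed MSC it had 992 ± 331, and with MSC and Treg 896 ± 130. In the same order, Bgn had 2118 CPM ± 572, 1521 ± 453 and 1576 ± 584, and Lum 384 ± 66.6, 261 ± 112 and 244 ± 78.8. Ogn had 90.1 CPM ± 21.5, 65.3 ± 25.7 and 59.4 ± 16.5, and Aspn 115 ± 6.42, 80.5 ± 36.8 and 80.4 ± 37.8. Of these 3 groups BCP had the highest mean for all 5, with ranges that overlapped those of the groups next in order. Prelp had 119 CPM ± 36.8, 95.3 ± 47.5 and 86.6 ± 42.0, Podn 56.3 ± 11.9, 81.2 ± 25.9 and 49.5 ± 13.9, and Omd 2.01 ± 0.715, 2.26 ± 1.5 and 1.83 ± 0.710. Over the 6 groups ordered by mean, neighbours overlapped for every member except Fmod and Ogn, where BCP+MSC+Treg and (dep)BCP+MSC+RvE1inj did not.

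Counted over the family, 6 of 10 members were more than 2-fold lower in (dep)BCP+MSC than in BCP+MSC, beside 17% of all genes tested, and the same 6, namely Fmod, Bgn, Lum, Ogn, Kera and Aspn, in (dep)BCP+MSC+RvE1inj, beside 15.1%. The groups did not overlap for 4 of 10, Fmod, Bgn, Ogn and Aspn, in the first comparison, beside 4.93% of all genes, and for 4 of 10, Fmod, Bgn, Ogn and Kera, in the second, beside 4.44%. Estimates were lower by any amount for 9 of 10 members, beside 52.1% of all genes, and for 10 of 10, beside 52.2%. These counts include the gene the family was chosen for. The median log2 fold change of the members was -1.30 and -1.04, against -0.04 and -0.04 over all genes. With the 2 (dep)BCP+MSC animals with Xist left out, the first count of members past 2-fold was 5, without Bgn. Without BCP+MSC replicate 2, the second count dropped from 6 to 3, Fmod, Ogn and Kera. That animal had a summed skeletal muscle marker level of 401 CPM, against 15820 to 29592 CPM in the remaining 3 of its group, and the highest Lum and Aspn of all animals.

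**Figure D2:**
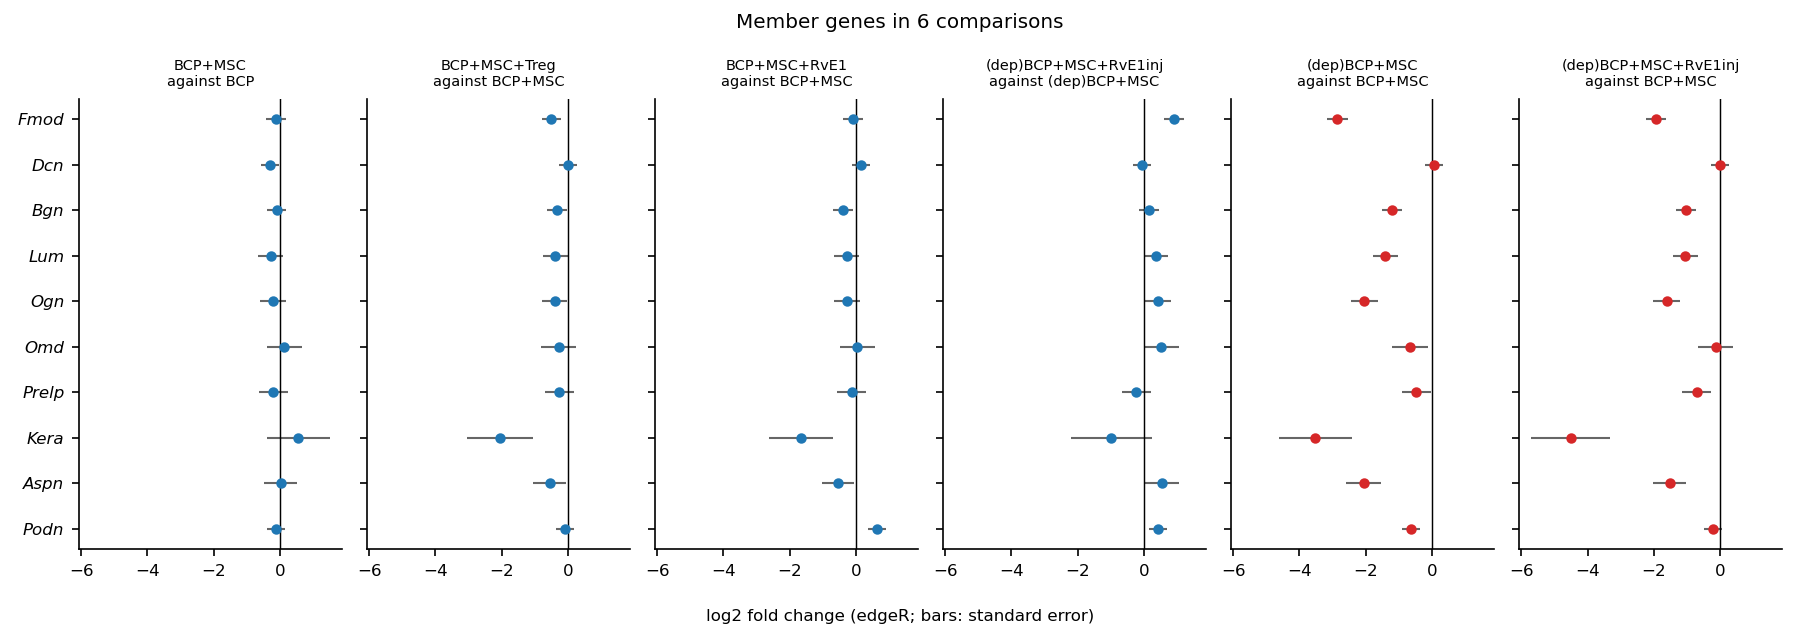
Log2 fold changes (x axis, edgeR) of the 10 members (rows) in 6 comparisons (panels), with standard errors as bars. The red panels, against BCP+MSC without toxin, are a description only; Fmod reaches -2.86 and -1.94 there, and Dcn stays at 0.06 and 0.00. Fmod in the panel of RvE1 injection is a description as well.

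The make-up of the family was different under toxin. Its summed level per length was 739 CPM per kb ± 205 (SD, n = 4) in BCP+MSC, 400.0 ± 59.3 in (dep)BCP+MSC and 433 ± 125 in (dep)BCP+MSC+RvE1inj. The share of Dcn was 20.2% ± 4.01 in BCP+MSC, 40.3% ± 4.32 in (dep)BCP+MSC and 35.7% ± 3.43 in (dep)BCP+MSC+RvE1inj, where the lowest animal, at 30.6%, lay within the range of the groups without toxin, which reached 34.5%. Bgn held 46.5% ± 13.1 in BCP+MSC and 35.2% ± 4.33 in (dep)BCP+MSC, so the mean share of Dcn was above that of Bgn there, although their ranges over animals overlapped. In (dep)BCP+MSC+RvE1inj Bgn held 36.4% ± 3.45 and stayed above Dcn. Of the groups without toxin, BCP+MSC had the lowest mean share of Dcn and the highest of Bgn. The others had 22.7% to 26.4% for Dcn and 39.7% to 41.6% for Bgn. Fmod went from 1.15% ± 0.351 in BCP+MSC to 0.263% ± 0.0914 in (dep)BCP+MSC, with 0.484% ± 0.0257 in (dep)BCP+MSC+RvE1inj. The difference between log2 CPM of Fmod and Dcn was -4.97 ± 0.72 in BCP+MSC, -8.13 ± 0.64 in (dep)BCP+MSC and -7.01 ± 0.19 in (dep)BCP+MSC+RvE1inj. The same difference between Fmod and its neighbour Prelp was -1.79 ± 0.97, -4.32 ± 0.96 and -3.21 ± 0.50.

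**Figure D3:**
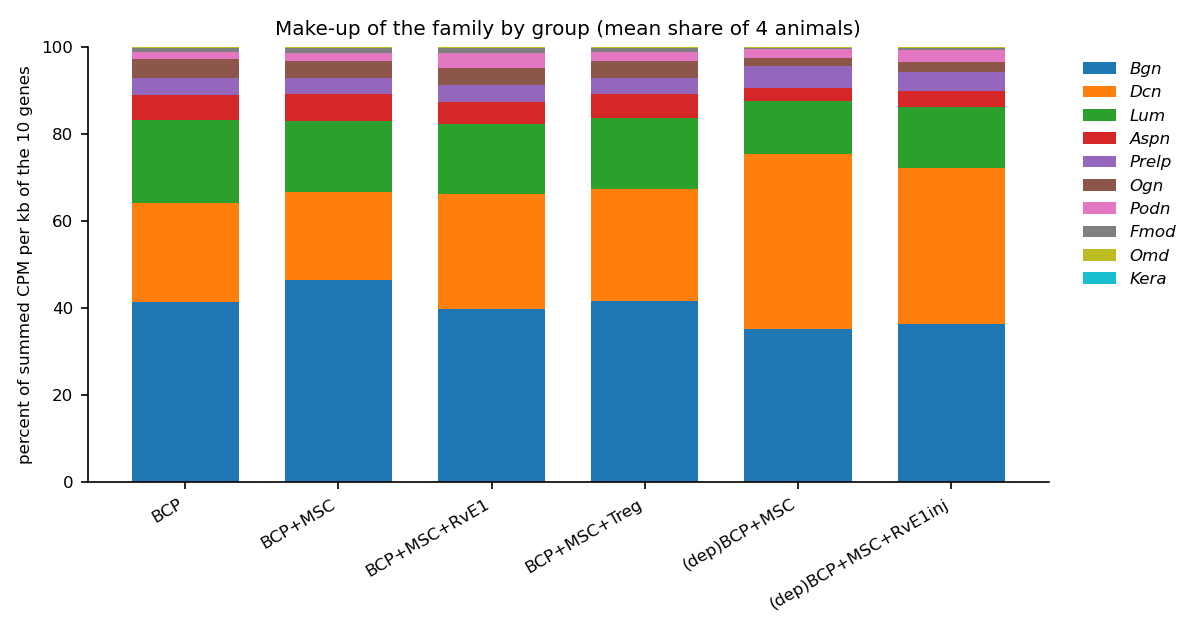
Share of each member (percent of the summed CPM per kb of the 10 genes, mean of 4 animals) in the 6 groups. Dcn takes 20.2% in BCP+MSC and 40.3% in (dep)BCP+MSC, while Bgn, Lum, Aspn, Ogn and Fmod take smaller shares.

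Most markers of fibroblasts, tendon cells and osteoblasts had lower estimates in the toxin-treated groups than in BCP+MSC, as had these members. The summed level of 12 fibroblast markers, such as Pdgfra, Thy1 and Dpt, ran from 2239 to 3084 CPM in BCP+MSC, from 924 to 1622 CPM in (dep)BCP+MSC and from 1015 to 1857 CPM in (dep)BCP+MSC+RvE1inj. None of the 12 was at 0 in any group. Lower than in BCP+MSC were 12 of 12 and 11 of 12, beside 52.1% and 52.2% of all genes. Tendon markers, 8 genes, ran from 447 to 1331, from 140 to 320 and from 134 to 349 CPM. Of these 8, 7 were lower than in BCP+MSC in (dep)BCP+MSC. In (dep)BCP+MSC+RvE1inj 5 were lower and 3 higher. Osteoblast markers, 10 genes, ran from 3631 to 7190, from 1140 to 6563 and from 1347 to 5870 CPM. In BCP, without toxin, they ran from 2304 to 3922 CPM, inside both toxin-treated ranges. The fibroblast and tendon sums of BCP, 2517 to 3085 and 582 to 938 CPM, lay above those of both toxin-treated groups. Of the 10 osteoblast markers, 8 were lower than in BCP+MSC in each toxin-treated group. Their median log2 fold changes were -1.46 and -0.98, against -1.49 and -0.78 for the fibroblast markers. Bglap2 and Mepe were at 0 in (dep)BCP+MSC, but Mepe was also at 0 in BCP and in BCP+MSC+Treg. Smooth muscle and pericyte markers, 6 genes, ran from 322 to 447, from 162 to 271 and from 157 to 252 CPM. Of these, 4 of 6 were lower in each toxin-treated group. Neutrophil markers, 6 genes, ran from 253 to 396, from 80.2 to 482 and from 144 to 368 CPM, with 5 of 6 lower in each. Cartilage markers, 10 genes, ran from 11.9 to 33.4, from 16.3 to 35.1 and from 14.2 to 45.8 CPM, with 5 of 10 lower in each. Macrophage markers were lower for 9 and 4 of 11, endothelial markers for 6 and 7 of 7 and adipocyte markers for 3 and 4 of 8. Of 8 T cell markers, 7 were higher in each. Skeletal muscle markers, 18 genes, ran from 401 to 29592, from 28627 to 44978 and from 8390 to 36785 CPM. Skin markers, 12 genes, were at 532 CPM in (dep)BCP+MSC replicate 1, also the shallowest library, and at 17.6 to 95.7 CPM in the other 23 animals. When the mean log2 level of the fibroblast markers was added to the fit, a choice made after seeing the data, the log2 fold change of Fmod was -1.47 in (dep)BCP+MSC and -1.0 in (dep)BCP+MSC+RvE1inj. That of Dcn was then 1.08 and 0.65. Only Fmod, at the 2-fold limit in (dep)BCP+MSC+RvE1inj, and Kera, on few reads, were past 2-fold lower. The 12 markers include Col15a1, whose pattern was close to that of Fmod (r = 0.96). Bgn, Lum, Ogn and Aspn were then at 0.07, 0.43, 0.28 and 0.41 in (dep)BCP+MSC. The fibroblast sums of toxin-treated and BCP+MSC animals do not overlap, so this adjustment extends beyond the data of each group. The part of cell types other than fibroblasts in the family's values was not tested beyond some covariate fits. With the skeletal muscle or the skin markers as the covariate, Fmod stayed more than 2-fold lower. With the skeletal muscle markers, members past 2-fold were 6 in (dep)BCP+MSC and 4 in (dep)BCP+MSC+RvE1inj, without Lum and Bgn. With the skin markers they were 5, without Bgn, and 6.

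**Figure D4:**
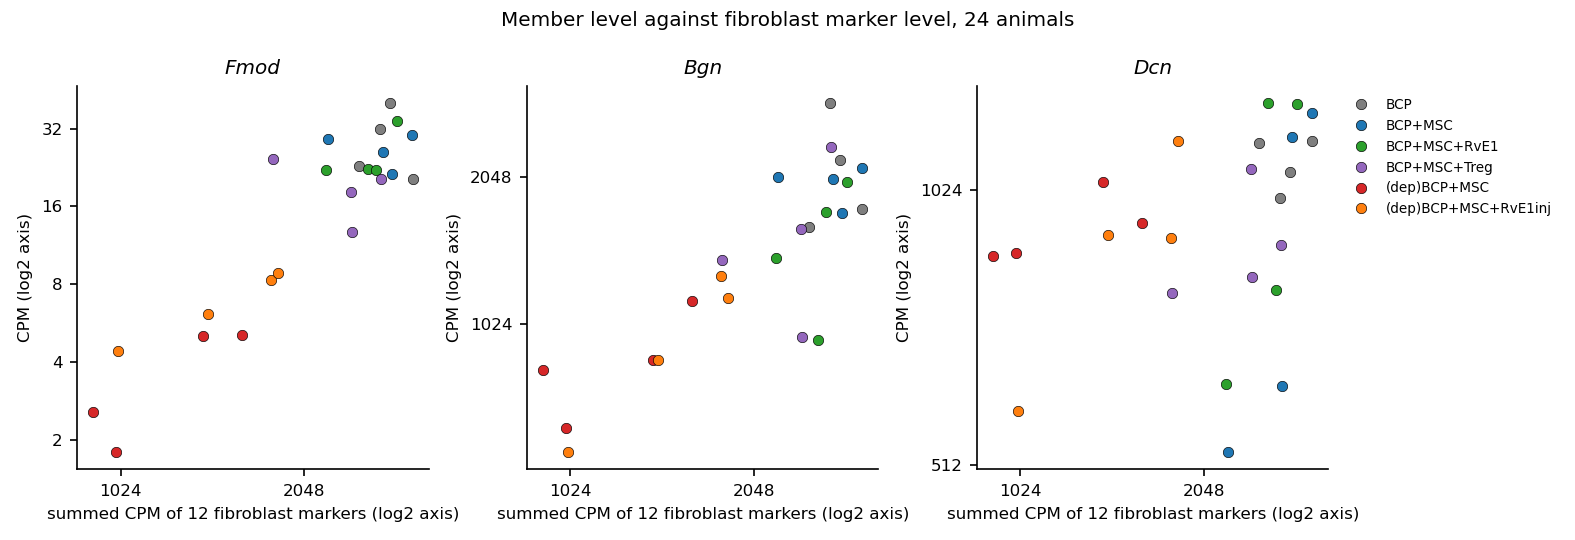
CPM of Fmod, Bgn and Dcn (y axes, log2) against the summed CPM of 12 fibroblast markers (x axes, log2) in the 24 animals, coloured by group. Toxin-treated animals sit low in fibroblast markers, Fmod and Bgn, and within the common range for Dcn.

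The genes that work with the family were compared in the same way. Over all genes, 52.1% were lower in (dep)BCP+MSC than in BCP+MSC and 17% by more than 2-fold. In (dep)BCP+MSC+RvE1inj 52.2% were lower. Of 14 collagens of fibrils and their partners, 14 were lower in (dep)BCP+MSC than in BCP+MSC, 10 of them by more than 2-fold, with a median log2 fold change of -1.48. Col1a1, the leading fibrillar collagen, was at 7148 CPM ± 2055 in BCP+MSC, 2451 ± 1174 in (dep)BCP+MSC and 2946 ± 1473 in (dep)BCP+MSC+RvE1inj. Of 22 enzymes that build chondroitin and dermatan sulfate chains, 20 were lower, with a median of -0.59 and 5 more than 2-fold. Of 9 keratan sulfate enzymes 7 were lower, with a median of -0.30 and 1 more than 2-fold. Of 13 receptors 9 were lower, with a median of -0.25, and of 10 growth factors bound by the family 5, with a median of -0.32. Of 14 proteases that cut these proteins or their partners 11 were lower, with a median of -0.68. In (dep)BCP+MSC+RvE1inj, 14 of 14 collagens, 21 of 22 chondroitin and dermatan sulfate enzymes and 4 of 9 keratan sulfate enzymes were lower than in BCP+MSC, with medians of -1.32, -0.36 and 0.07. There 11 of 13 receptors, 7 of 10 growth factors and 11 of 14 proteases were lower, with medians of -0.51, -0.37 and -0.34. Of the other 7 members of the wider family, Ecm2, the neighbour of Aspn, was at 6.14 to 22.8 CPM in BCP+MSC and at 4.00 to 7.55 CPM in (dep)BCP+MSC, a log2 fold change of -1.22 (SE 0.41). Tsku had -0.58 (SE 0.26) and Podnl1 -0.55 (SE 0.45), while Epyc, Optc, Chad and Nyx stayed under 3 CPM in every animal.

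The steps of the design among mice without toxin were tested with edgeR, with adjustment over all 30564 genes. No member differed between the scaffold with and without MSC by more than the spread between animals. In BCP+MSC against BCP, 0 of 10 members passed an adjusted p of 0.05, beside 0% of all genes, and 0 of 10 had an unadjusted p under 0.05, beside 5.06%. Log2 fold changes ran from -0.30 (Dcn, SE 0.27) to 0.56 (Kera, SE 0.96), with a median of -0.11 against 0.06 over all genes. They were below 0 for 7 of 10 members, beside 43.8% of all genes, and the groups did not overlap for 0 of 10, beside 1.81%. Fmod had -0.11 (SE 0.30, 95% interval -0.69 to 0.47, edgeR adjusted p = 0.991) and an exact two-sided permutation p of 0.771. DESeq2 called 0 of 10 members and 6 of all genes.

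Coculture of MSC with Treg gave lower estimates for 9 of 10 members, beside 53.2% of all genes. Still, 0 of 10 passed the adjusted test, beside 0% of all genes. In edgeR 0 of 10 had an unadjusted p under 0.05, beside 2.72%, and DESeq2 called 0 of 10 members and 0 of all genes. Fmod was nearest among the well-expressed members, with a log2 fold change of -0.49 (SE 0.30, interval -1.08 to 0.09, edgeR adjusted p = 1.00). Its exact two-sided permutation p was 0.0571, where 4 against 4 animals can give 0.0286 at the least, and 0 of 4 BCP+MSC+Treg animals lay above the BCP+MSC median. With Xist as a covariate, which was above 10 CPM in 3 of 4 BCP+MSC and 1 of 4 BCP+MSC+Treg animals, it had -0.82 (edgeR unadjusted p = 0.0176). The BCP+MSC values of Fmod were part of the choice of the family, so neither p-value counts as support. Kera had -2.04 (SE 0.99) from 14, 10, 45 and 1 reads in BCP+MSC+Treg, an exact permutation p of 0.200. Without BCP+MSC replicate 2, which held 212 of the reads of its group, Kera had -0.70, and its unadjusted p was under 0.05 in 5 of 18 alternatives, DESeq2 among them (0.0398). The groups did not overlap for 0 of 10 members, beside 1.05% of all genes. Bgn, Lum, Ogn and Aspn had -0.33 (SE 0.29), -0.38 (SE 0.37), -0.40 (SE 0.39) and -0.54 (SE 0.50).

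In BCP+MSC+RvE1 against BCP+MSC, 0 of 10 members passed the adjusted edgeR test, beside 0% of all genes, and DESeq2 called 0 of 10 members and 3 of all genes. The 1 member with an unadjusted p under 0.05, beside 3.26% of all genes, was Podn. Podn had 73.0, 115, 52.6 and 84.7 CPM in BCP+MSC+RvE1 and 34.7, 36.8, 58.8 and 79.8 CPM in BCP+MSC, and 4 of 4 primed animals lay above the BCP+MSC median although the groups overlapped. Its log2 fold change was 0.63 (SE 0.27, interval 0.09 to 1.16), with an edgeR adjusted p of 0.924 and an exact permutation p of 0.171. With 1 animal left out at a time the log2 fold change ran from 0.42 to 0.90, and the unadjusted p was then above 0.05 without BCP+MSC replicate 1 or 2 or BCP+MSC+RvE1 replicate 2 or 4. It was also above 0.05 with the skeletal muscle markers as a covariate (edgeR unadjusted p = 0.0772), with Xist as a covariate (0.0844) and with only the groups compared (0.0700), and under 0.05 in 11 of 18 alternatives. Skeletal muscle markers had higher estimates in BCP+MSC+RvE1 for 16 of 18 genes. Fmod had -0.08 (SE 0.30, interval -0.66 to 0.50, edgeR adjusted p = 0.988), and Bgn -0.38 (SE 0.29). Estimates were lower for 7 of 10 members, beside 52.5% of all genes, and the groups did not overlap for 0 of 10, beside 1.71%. Over the 4 groups without toxin together, 0 of 10 members passed the edgeR test for any difference, beside 0% of all genes, and 0 of 10 had an unadjusted p under 0.05, beside 5.22%. Podn was nearest, with an unadjusted edgeR p of 0.0532, and fell under 0.05 with RLE scaling (0.0391), filterByExpr (0.0497), no filter (0.0449) and DESeq2 (0.0404), and also in 5 of the fits that each left out 1 animal. DESeq2 called 0 of 10 members and 6 of all genes there after adjustment.

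Local RvE1 injection was compared within the toxin-treated mice. Fmod was at 1.79, 2.55, 5.08 and 5.02 CPM without and at 8.29, 8.86, 4.40 and 6.10 CPM with RvE1, so 4 of 4 injected animals lay above the median of the others while the groups overlapped. The family was chosen on the low Fmod of these same animals, so its log2 fold change, 0.92 (SE 0.30), is a description with no test. The 2 lowest values came from the 2 toxin-treated animals with Xist above 10 CPM, which also had the lowest fibroblast sums of their group, 1008 and 924 CPM. The lowest, (dep)BCP+MSC replicate 1, rests on 18 Fmod reads in the shallowest library, which also held 532 CPM of skin markers. With the 2 animals with Xist left out, a choice made after seeing the data, the log2 fold change of Fmod was 0.48. With the fibroblast level in the fit it was 0.47. The tests were read for the members other than Fmod. In edgeR 0 of them passed the adjusted test, beside 0% of all genes. Likewise 0 of them had an unadjusted edgeR p under 0.05, beside 7.42% of all genes. DESeq2 called 0 of them and 9 of all genes. The members other than Fmod had log2 fold changes from -0.98 (Kera, SE 1.22) to 0.55 (Aspn, SE 0.50). Over the family, estimates were below 0 for 3 of 10 members, beside 48.7% of all genes, and the groups did not overlap for 0 of 10, beside 2.6%.

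The partner lists gave no adjusted call in any tested comparison, 0 of 14 collagens, 0 of 22 chondroitin and dermatan sulfate enzymes, 0 of 9 keratan sulfate enzymes, 0 of 13 receptors, 0 of 10 growth factors and 0 of 14 proteases. All 14 collagens had lower estimates in BCP+MSC+Treg and in BCP+MSC+RvE1 than in BCP+MSC, beside 53.2% and 52.5% of all genes. Their medians were -0.34 and -0.44, and 0 of 14 had an unadjusted edgeR p under 0.05 in either. These comparisons share the BCP+MSC animals.

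How the members varied between animals of 1 group was a separate matter from the step with toxin. Dcn varied least, with a within-group SD of 0.38 on the log2 scale, then Podn (0.40), Bgn (0.42) and Fmod (0.46). Lum and Ogn had 0.58 and 0.61, Prelp 0.68, Aspn and Omd 0.76 each, and Kera 1.49. After subtraction of group means, over 24 animals, Pearson's r of log2 CPM was 0.94 for Lum and Aspn, 0.92 for Dcn and Lum, 0.91 for Dcn and Aspn and 0.85 for Dcn and Ogn. Animals high in Dcn were thus also high in Lum, Aspn and Ogn. Across all 24 animals with the groups left in, r was 0.68 for Dcn and Lum, 0.65 for Dcn and Aspn and 0.51 for Dcn and Ogn, while Lum and Aspn kept 0.97. Within groups Fmod was most like Bgn, with r = 0.71, ahead of Ogn with 0.43. Its r with Dcn was 0.25 within groups and 0.15 with the groups left in. Podn had negative r within groups with Lum, Aspn and Fmod. All values share libraries, depth and tissue make-up, and are given as descriptions.

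**Figure D5:**
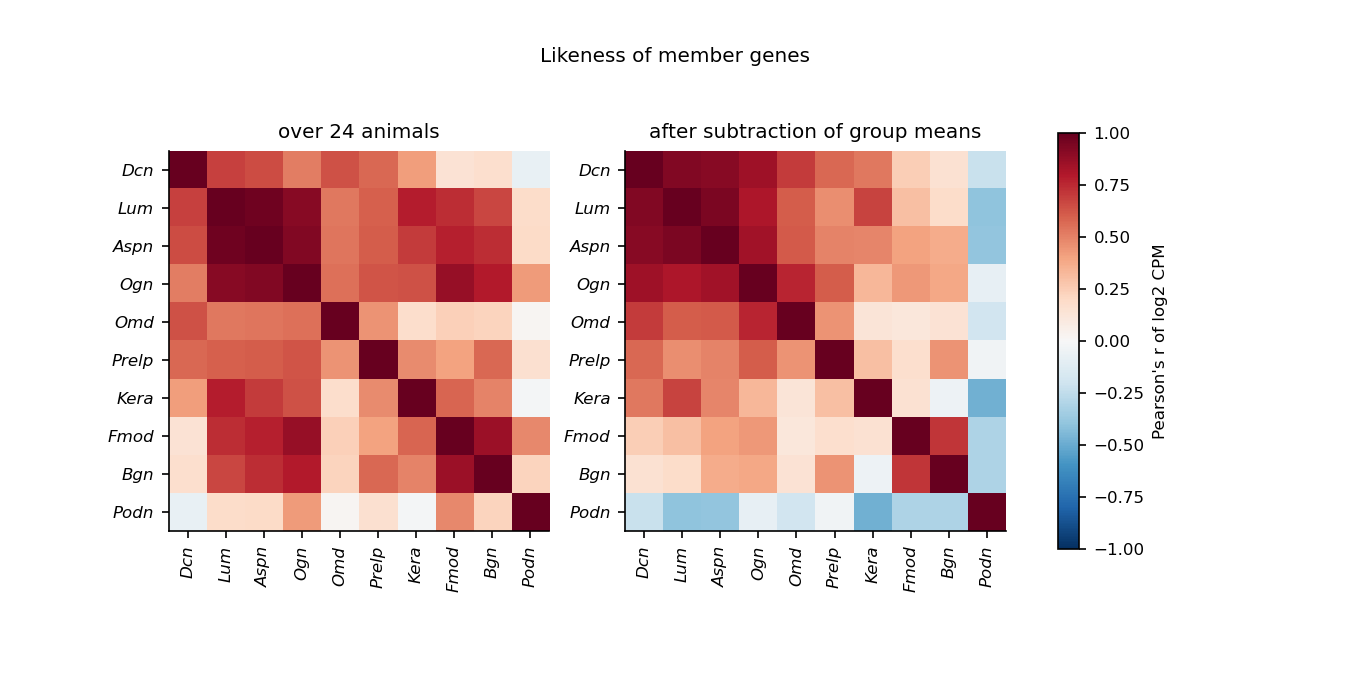
Pearson's r of log2 CPM between members over 24 animals (left) and after subtraction of group means (right), red for positive and blue for negative. Dcn, Lum, Aspn and Ogn form a block within groups, and Fmod and Bgn pair with r = 0.71.

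The genes with the pattern most like Fmod over the 24 animals, among 14285 genes, were C1qtnf6 (r = 0.97), Mirg (0.97), Rtl1 (0.96), Col15a1 (0.96), which is also one of the fibroblast markers, and Fscn1 (0.96). After subtraction of group means their r with Fmod ran from 0.73 to 0.83. Among the members, Ogn (0.87) and Bgn (0.86) were the most like Fmod, and ranked 186 and 253 among all genes.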

How the data were processed

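Gene expression was measured by bulk RNA sequencing of whole constructs in 24 mice, 4 in each of 6 groups taken from the labels. The authors made stranded libraries, aligned paired reads with HISAT2 2.0.5 and counted read pairs on exons with featureCounts 1.5.2 and GENCODE M13 (GRCm38). The deposited values are raw counts, without normalization or filter. The recorded command names no strand, multi-mapping or overlap option, so reads in overlapping genes were left out. Columns 4 and 5 of (dep)BCP+MSC match no numbered sample and were used as members of that group without a replicate number. Symbols came from GENCODE M21 of the same build and matched 50376 of 51138 identifiers.

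Counts were scaled by TMM and fitted with edgeR 4.0.16 in R 4.3.3, in 1 quasi-likelihood model of all 6 groups, over the 30564 genes with at least 10 counts in all samples together. Adjusted p-values are those of Benjamini and Hochberg, taken over the whole table. Log2 CPM used a prior count of 2, and log2 fold changes are estimates of the model, whose 95% intervals are approximate. For single members, log2 CPM was also put through an exact permutation test, two-sided, over 70 arrangements. Total counts were 8482701 to 144417743, and after TMM scaling 3 counts stand at 0.299 CPM in the smallest library and 0.0223 CPM in the largest, a floor for counting error only. The fits were tested on simulated data. The members and the gene lists were chosen with earlier results of these data known, and all 10 members are named, with the 5 genes most like Fmod and the leading gene of a list where it is described. Alternatives were RLE normalization, 2 filters, DESeq2 1.42.0, fits of only the groups compared, marker and Xist covariates, a replicate block and the omission of single animals.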

Additional observations from a re-analysis of the deposited data

Results flagged for a closer look

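Of 60 sets of 4 values (10 members in 6 groups), 2 held an animal far from the other 3 by Dixon's ratio, where chance gives about 3. The ratio is the gap to the nearest value over the whole range, taken on log2 CPM. Fmod in BCP+MSC+RvE1 replicate 3 was at 34.2 CPM, with the others at 22.1 to 22.3 CPM and a ratio of 0.977. Omd in BCP+MSC replicate 4 was at 4.86 CPM, with the others at 1.24 to 1.39 CPM and a ratio of 0.919.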

How the results depend on the processing

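With the fibroblast level in the fit, added after seeing the data, members more than 2-fold lower were 2 in each toxin comparison instead of 6. Bgn, Lum, Ogn and Aspn then reversed to 0.0732, 0.43, 0.28 and 0.41 in (dep)BCP+MSC, and Lum and Aspn to 0.12 and 0.0245 in (dep)BCP+MSC+RvE1inj, while Omd turned to 0.87 and 0.89 and Prelp to 0.34 in (dep)BCP+MSC, from estimates of less than 2-fold. Leaving out single animals gave 5 to 6 such members in (dep)BCP+MSC and 3 to 6 in (dep)BCP+MSC+RvE1inj, with 3 without BCP+MSC replicate 2. Fmod in BCP+MSC against BCP reversed to 0.0608 with the skin covariate, to 0.24 with the Xist covariate and to 0.0911 without BCP replicate 3, with -0.25 to 0.0911 over single animals left out. The causes were not tested. Same-numbered animals did not pair, since r of their deviations ran from -0.64 to 0.58 over 50 pairs and was above 0.1 in 19. The replicate block leaves out columns 4 and 5 of (dep)BCP+MSC and so keeps the 2 animals with Xist and the lowest Fmod. For RvE1 injection it called 344 of 30092 genes and gave Fmod a log2 fold change of 1.69, with no test. It changed no call of the tested members. The log2 fold change of Fmod for RvE1 injection, a description, ran from 0.47 to 1.69 over 19 alternatives. Of 40 member fold changes, that of Fmod for RvE1 injection included as a description, 12 kept their sign in every alternative. Of the tested ones, 35 had an unadjusted p under 0.05 in none. DESeq2 called 6, 0, 3 and 9 of all genes in the comparisons in the order of the report, and the skin covariate 1 in BCP+MSC against BCP. Genes more than 2-fold lower numbered 5185 in (dep)BCP+MSC, 2331 after filterByExpr and 8106 with the block, and 4622 in (dep)BCP+MSC+RvE1inj, 1819 after filterByExpr and 3033 with only the groups compared. Kera and Omd are limited by depth.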
